A study of Mus musculus with 6 samples.

Results

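A set of 10 genes of gonad development and steroid production were followed in EGFP-positive cells of mouse embryos that lack Pax2 or are heterozygous for it. The genes were Nr5a1, Lhx9, Nr0b1, Star, Cyp11a1, Cyp17a1, Hsd3b1, Mc2r, Amhr2 and Inha, and every probe set that the platform annotation assigns to exactly 1 of these symbols was taken. This gave 20 probe sets among the 45037 that were tested, and 10 of 18193 genes. The cells came from the intermediate mesoderm region at E11.5, were sorted by fluorescence, and were measured on 3 arrays of Pax2 null cells and 3 arrays of Pax2 heterozygote cells. The titles give EGFP/EGFP for null and EGFP/+ for heterozygote samples, so loss of Pax2 and the number of EGFP alleles cannot be told apart, and no wild-type sample was included. Whether a sample came from one embryo or a pool is not stated, so the p-values cover the spread among arrays of a genotype, some of which can be technical.

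The intermediate mesoderm forms the kidneys, and the gonads and the adrenal cortex arise from the coelomic epithelium of the same region. Nr5a1, also called SF-1, is a nuclear receptor needed to form both steroid-producing organs, and in their cells it activates genes that import cholesterol and convert it to steroids. Star brings cholesterol into mitochondria, Cyp11a1 cuts its side chain, and Hsd3b1 and Cyp17a1 carry out later steps, while Nr0b1 restrains Nr5a1 and Lhx9 helps to turn it on in the early gonad. Mc2r is the ACTH receptor of the adrenal cortex, Amhr2 the receptor for anti-Müllerian hormone, and Inha the alpha subunit of inhibin.

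Promoter windows of 4 genes are printed: that of Hsd3b1, the member that rose, and those of Cyp11a1, Amhr2 and Inha, in which AGGTCA was found. The sequences are from RefSeq (GRCm38.p6), run 5′ to 3′ along the gene from 250 bases before the start to 50 after it, and carry in capitals any AGGTCA, the core bound by many nuclear receptors, or CAAGGTCA, its extended form bound by Nr5a1, on either strand. The windows are chr3:98859745-98860044 (minus strand) for Hsd3b1, chr9:58014702-58015001 (plus strand) for the second listed start of Cyp11a1, chr15:102445117-102445416 (plus strand) for Amhr2 and chr1:75507359-75507658 (plus strand) for Inha.
Hsd3b1: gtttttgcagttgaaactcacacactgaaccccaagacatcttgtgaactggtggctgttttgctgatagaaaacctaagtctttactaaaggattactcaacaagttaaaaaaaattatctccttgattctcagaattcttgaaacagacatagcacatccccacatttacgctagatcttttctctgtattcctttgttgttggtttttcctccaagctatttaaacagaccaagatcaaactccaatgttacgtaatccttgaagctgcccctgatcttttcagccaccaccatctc
Cyp11a1: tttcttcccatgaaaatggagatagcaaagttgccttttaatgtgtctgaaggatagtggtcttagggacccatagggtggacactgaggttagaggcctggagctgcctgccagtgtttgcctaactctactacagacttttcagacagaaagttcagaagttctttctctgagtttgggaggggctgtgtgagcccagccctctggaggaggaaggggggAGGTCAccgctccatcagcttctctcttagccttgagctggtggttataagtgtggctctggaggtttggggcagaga
Amhr2: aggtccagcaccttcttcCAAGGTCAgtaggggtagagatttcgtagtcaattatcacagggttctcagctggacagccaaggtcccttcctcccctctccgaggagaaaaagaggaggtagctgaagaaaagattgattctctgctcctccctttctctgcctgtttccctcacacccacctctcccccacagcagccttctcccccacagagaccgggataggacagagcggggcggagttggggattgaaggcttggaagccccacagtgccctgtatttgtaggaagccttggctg
Inha: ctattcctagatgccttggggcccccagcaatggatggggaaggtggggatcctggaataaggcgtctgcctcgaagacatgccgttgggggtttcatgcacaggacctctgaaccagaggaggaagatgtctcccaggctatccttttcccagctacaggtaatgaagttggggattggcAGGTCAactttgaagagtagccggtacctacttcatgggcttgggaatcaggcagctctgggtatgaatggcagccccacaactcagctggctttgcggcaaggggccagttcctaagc
In the Amhr2 window CAAGGTCA, which contains AGGTCA, began 232 bases before the start. AGGTCA began 69 bases before the start of Inha and 28 bases before this start of Cyp11a1, and neither motif occurred in the Hsd3b1 window. RefSeq windows were found for 6 of the 10 genes, 7 in all since Cyp11a1 had both starts listed. AGGTCA occurred in 4 of the 7, the fourth being Nr0b1, where it began 126 bases before the start, and in 16.3% of 32851 mouse windows. CAAGGTCA occurred in 1 of the 7 and in 1.56% of all windows, and CAAGGCCA, a variant, in 0 of the 7 and 2.4% of all. These matches describe letters in the windows, not binding.

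Across the series the array medians lay between 6.12 and 6.24 on the log2 scale. All 16 measured markers of nephric duct and kidney mesenchyme, which derive from intermediate mesoderm, had means over the 6 arrays above the 33rd percentile of probe sets (4.81). So did all 12 measured stromal genes and all 20 of cholesterol synthesis, so this level does not single out a cell type. Pax2 itself is not analysed here, and the genotype labels were not checked against it. In hybridization controls spiked into the samples, null 3 matched heterozygote 1, null 1 matched heterozygote 2 and null 2 matched heterozygote 3. The labels give no such pairs.

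All 10 genes had higher mean values in null cells, by 0.04 to 2.26 log2 units with a median of 0.70, against a median of -0.02 over all genes, of which 46.4% were higher in null. Of the 10, Hsd3b1 rose and the other 9 did not pass (limma, adjusted p under 0.05 over all genes), where 0.808% of all genes rose 0.583% fell and 1.39% changed either way. At an unadjusted p under 0.05 6 of the 10 were higher in null, against 5.08% of all genes (limma). In 5 of the 10, namely Nr5a1, Lhx9, Hsd3b1, Mc2r and Inha, every null array lay above every heterozygote array, as in 6.49% of all genes. Since these genes were listed with earlier results of the same arrays known, the counts describe them and are no independent support. With the array pair as a block, Hsd3b1, Nr5a1 and Amhr2 rose, where 2.67% of all genes did and 4.56% changed either way. Without heterozygote 3 no member passed, and without heterozygote 1 both Hsd3b1 and Nr5a1 did. In these bulk samples more cells of a type and more RNA per cell cannot be told apart.

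**Figure D1:**
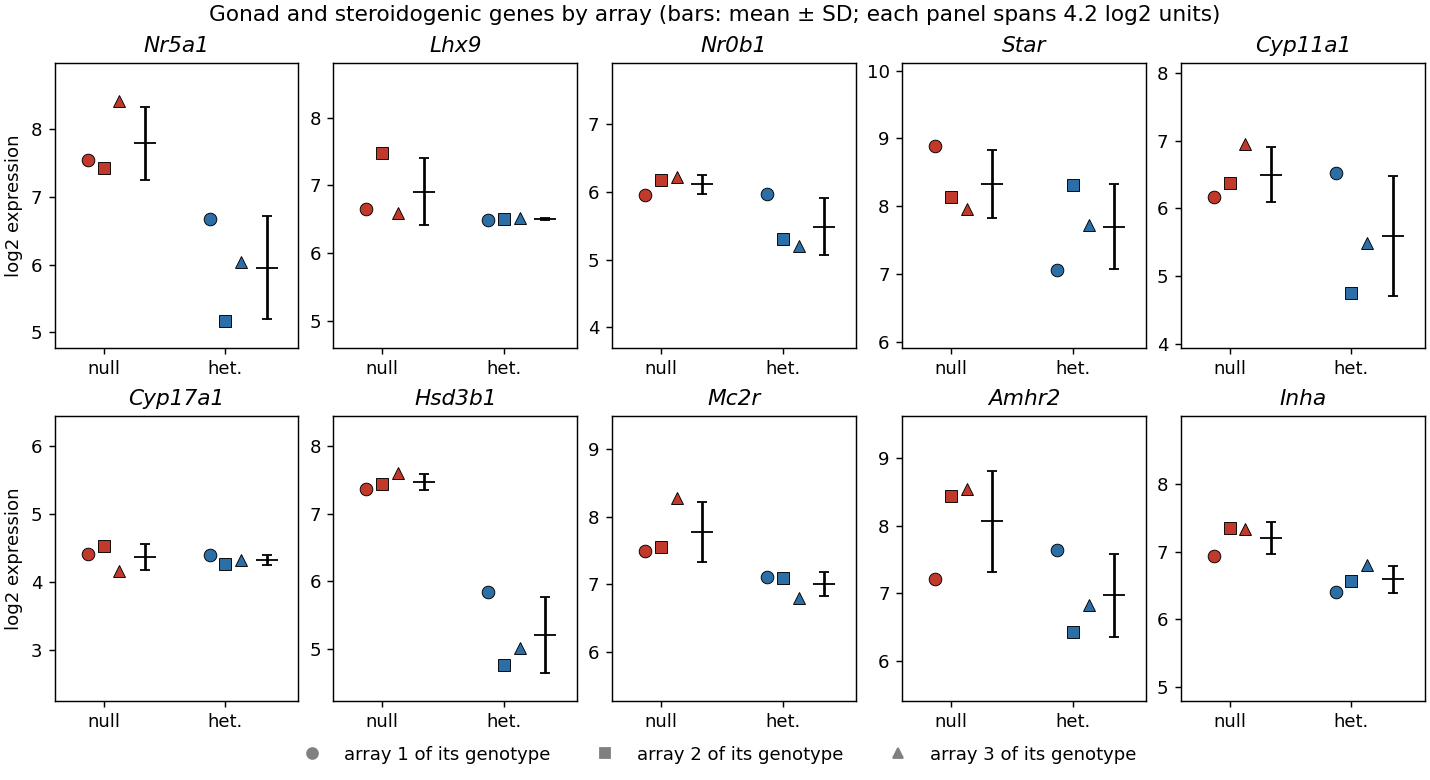
Log2 expression of the 10 genes, each by its brightest probe set, on the 3 null and 3 heterozygote (het.) arrays, with the mean and SD beside the points. The null points of Hsd3b1 lie between 7.37 and 7.60 and its heterozygote points between 4.77 and 5.84, whereas the points of Cyp17a1 lie between 4.16 and 4.52 in both genotypes.

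Among the transcription factors, Nr5a1 had the widest gap between genotypes, and the gap did not pass the test over all genes. Nr5a1 had log2 values of 7.54, 7.43 and 8.41 on the null arrays, against 6.67, 5.17 and 6.04 on the heterozygote arrays. The genotypes did not overlap, null 3 was high and heterozygote 2 was low. The means were 7.79 ± 0.54 in null and 5.96 ± 0.76 in heterozygote cells (SD, n = 3 each), a difference of 1.83 ± 0.40 (SE) or 3.57-fold (limma, adjusted p = 0.0926). With the array pair as a block Nr5a1 rose (limma, adjusted p = 0.0118), and without heterozygote 1 it also passed (limma, adjusted p = 0.0337). The gene has a second probe set, 1421730_at, which read 5.24, 5.35 and 5.28 in null and 5.14, 5.05 and 5.30 in heterozygote cells and overlapped between genotypes. Its difference was 0.13 ± 0.15, so averaging both probe sets gave 0.98 for Nr5a1 (limma, adjusted p = 0.0935).

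Lhx9, a LIM homeobox factor of the early gonad, had 4 probe sets, all higher in null on average and none passing. Its brightest, 1431598_a_at, read 6.65, 7.48 and 6.59 in null cells and 6.48, 6.50 and 6.52 in heterozygote cells. The heterozygote arrays were nearly equal and null 2 alone stood well above them, so the difference of 0.40 ± 0.25 (limma, adjusted p = 0.764) came to 0.12 without null 2. The other 3 Lhx9 probe sets differed by 0.73 ± 0.57, 0.99 ± 0.35 and 0.21 ± 0.20, and their arrays overlapped. By their means over all arrays they lay under the 33rd percentile of probe sets, at percentiles 31.2, 13.8 and 6.99 in that order. At this low signal their shared direction and array order carry little weight. In the first of these, 1419324_at, heterozygote 1 at 5.58 stood beside null 3 at 5.77, while heterozygote 2 and 3 read 3.51 and 3.84. These 3 probe sets were highest on null 3, whereas the brightest was highest on null 2.

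Nr0b1, an X-linked receptor that represses Nr5a1 activity and is often expressed with it, read 5.95, 6.17 and 6.21 in null cells, against 5.96, 5.30 and 5.19 in heterozygote cells. Heterozygote 1 reached the lowest null array, and the other heterozygote arrays lay below all null arrays. The difference was 0.62 ± 0.23 (limma, adjusted p = 0.375), and with the array pair as a block it did not pass either (limma, adjusted p = 0.108).

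Of the steroidogenic genes, Hsd3b1, which encodes 3-beta-hydroxysteroid dehydrogenase, was the member that rose. Its probe set, 1448453_at, read 7.37, 7.44 and 7.60 in null cells, against 5.84, 4.77 and 5.02 in heterozygote cells. The null arrays were close together and all lay above every heterozygote array, of which heterozygote 1 was the highest. Means of 7.47 ± 0.12 and 5.21 ± 0.56 (SD, n = 3 each), for null and heterozygote cells in that order, gave a rise of 2.26 ± 0.27 (SE) or 4.78-fold (limma, adjusted p = 0.0106). The gene passed in 5 of 6 fits with 1 array left out, with changes of 2.03 to 2.57, and missed the threshold without heterozygote 3 (limma, adjusted p = 0.0542). When all 45037 probe sets were tested singly, where 0.391% rose and 0.691% changed, it was the only member probe set of 20 to rise (limma, adjusted p = 0.0190). That call was lost on leaving out any array but heterozygote 1.

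Hsd3b1 belongs to a family of closely similar genes, and probe sets of the family can pick up each other's RNA. The 4 other family genes with a probe set of their own did not pass. Hsd3b2 averaged 3.46 in null and 4.21 in heterozygote cells, a difference of -0.75 ± 0.21 (limma, adjusted p = 0.199), and it fell with the array pair as a block (limma, adjusted p = 0.0427). Hsd3b3, Hsd3b5 and Hsd3b7, picked after their values were seen, differed by -0.02, -0.18 and 0.26. A probe set annotated jointly to Hsd3b2, Hsd3b3 and Hsd3b6 read 5.81, 6.96 and 5.88 in null and 5.62, 5.51 and 5.34 in heterozygote cells, all null arrays being higher. Another, shared by Hsd3b4 and a pair of predicted genes, read 4.08, 4.21 and 3.58 in null and 7.75, 5.34 and 5.02 in heterozygote cells. These shared probe sets differed in direction from each other, and how far shared sequence entered the Hsd3b1 value was not tested.

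Star, the cholesterol carrier, was covered by 3 probe sets, each higher in null on average. So were 19 of the 20 member probe sets, the dim ones of Lhx9 among them, and 47.4% of all probe sets. The brightest of Star, 1418729_at, read 8.90, 8.13 and 7.96 in null cells, against 7.05, 8.31 and 7.73 in heterozygote cells. Its genotypes overlapped because heterozygote 2 lay above null 2 and null 3, and the difference was 0.63 ± 0.36 (limma, adjusted p = 0.718). In 1449201_at the arrays did not overlap, with 7.61, 7.34 and 8.22 in null and 6.88, 6.47 and 6.56 in heterozygote cells. That probe set differed by 1.09 ± 0.25 (limma over all probe sets, adjusted p = 0.163, and 0.0409 with the array pair as a block, under which 1.02% of probe sets rose and 1.71% changed). The third, 1418728_at, did not overlap either and differed by 0.73 ± 0.24. Such a full separation with null above was seen in 8 of the 20 member probe sets and in 5.56% of all. When the probe sets of each gene were averaged, Star rose by 0.82 (limma, adjusted p = 0.0298), so its call depended on how its probe sets were combined.

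Cyp11a1, whose enzyme makes pregnenolone from cholesterol, read 6.17, 6.38 and 6.95 in null cells and 6.52, 4.76 and 5.49 in heterozygote cells on its brightest probe set, 1448804_at. Heterozygote 1 lay within the null range and the other heterozygote arrays below it. The difference was 0.91 ± 0.42 (limma, adjusted p = 0.568). Of its other 2 probe sets, 1439947_at differed by -0.33 ± 0.20, the only member probe set with a lower mean in null cells. The other, 1457604_x_at, differed by 0.01 ± 0.16. It averaged 2.93 in null and 2.91 in heterozygote cells, under the 33rd percentile of probe sets, where a difference could hardly be detected. Cyp17a1, the enzyme of androgen synthesis, read 4.42, 4.52 and 4.16 in null and 4.40, 4.26 and 4.32 in heterozygote cells. These values overlapped throughout, under the 33rd percentile of probe sets, and the difference of 0.04 ± 0.16 (limma, adjusted p = 0.992) was not detectable at this signal.

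**Figure D2:**
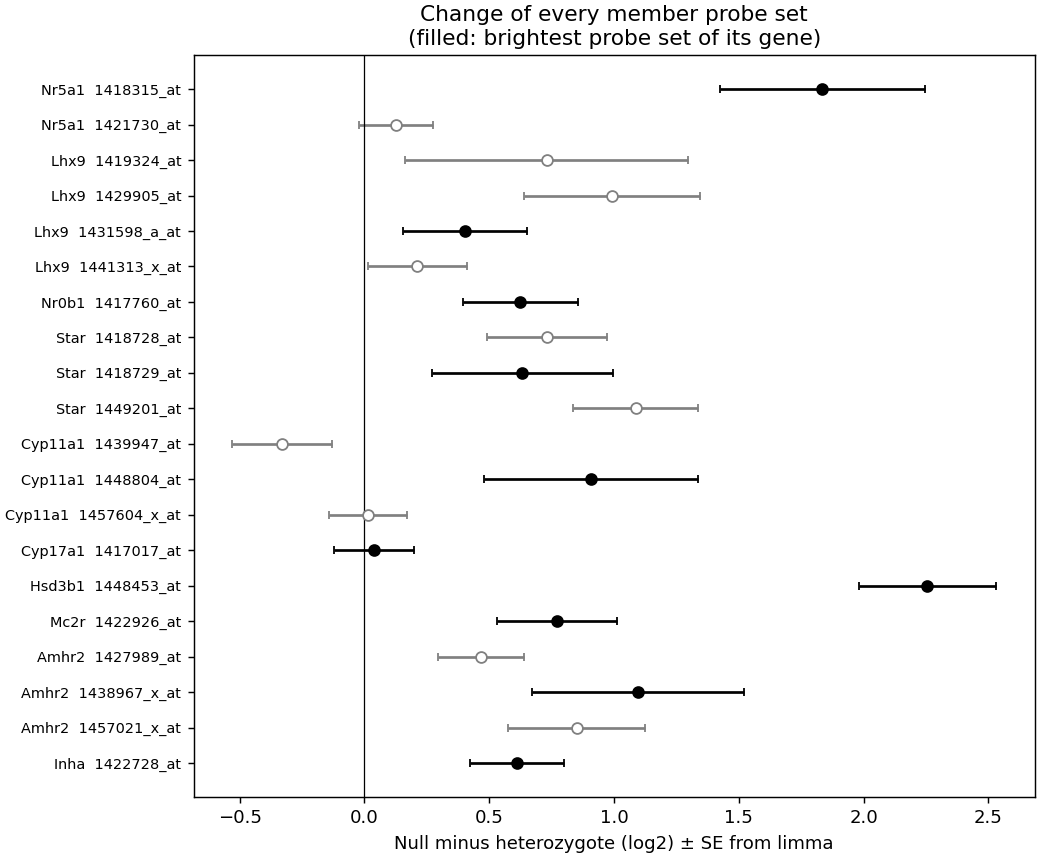
Difference between null and heterozygote means (log2, points) with the SE from limma (bars) for each of the 20 member probe sets, the brightest of each gene filled. Of the 20, 19 lie above 0, from 0.01 to 2.26, and 1 for Cyp11a1 lies at -0.33.

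The receptors and the hormone subunit differed by 0.61 to 1.10, and none of the 3 passed over all genes. Mc2r, which lets adrenal cortex cells respond to ACTH, read 7.49, 7.54 and 8.28 in null cells, against 7.11, 7.09 and 6.79 in heterozygote cells. All null arrays lay above all heterozygote arrays, with null 3 apart at the top, and the difference was 0.77 ± 0.24 (limma, adjusted p = 0.248). Inha read 6.93, 7.35 and 7.34 in null and 6.41, 6.57 and 6.80 in heterozygote cells. It did not overlap either, by a margin that was narrow between null 1 and heterozygote 3, and differed by 0.61 ± 0.19 (limma, adjusted p = 0.240).

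Amhr2, a receptor of the gonads and of the mesenchyme around the Müllerian duct, read 7.21, 8.44 and 8.55 in null and 7.65, 6.43 and 6.83 in heterozygote cells on its brightest probe set. Null 1 was low and heterozygote 1 high, so the genotypes overlapped, and the difference was 1.10 ± 0.42 (limma, adjusted p = 0.416). Amhr2 rose with the array pair as a block (limma, adjusted p = 0.0395). This probe set, 1438967_x_at, and 1457021_x_at, which differed by 0.85 ± 0.27, carry the suffix that Affymetrix gives to sets with probes matching other sequences. The third, 1427989_at, does not carry it and read 6.97, 6.84 and 6.65 in null against 6.29, 6.22 and 6.56 in heterozygote cells. There the genotypes did not overlap and the difference was smaller, at 0.47 ± 0.17.

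Within the array pairs, 9 of the 10 genes were higher in the null array of all 3 pairs, as were 19.1% of all genes. Cyp17a1 was the exception, with -0.24, 0.15 and 0.21 in pairs 1, 2 and 3. Hsd3b1 differed by 1.75, 2.60 and 2.42, and Nr5a1 by 1.74, 2.37 and 1.39, so that both exceeded 1 log2 unit in each pair. Amhr2 differed by 0.90, 0.77 and 1.61. Star, which overlapped between genotypes, differed by 0.91, 0.58 and 0.40, and Cyp11a1 by 0.43, 1.41 and 0.89. Lhx9 was close to 0 in pairs 1 and 2, at 0.10 and 0.14, and stood at 0.96 in pair 3. The median over the 10 genes was 0.90, 0.62 and 0.93 in pairs 1, 2 and 3, against -0.06, -0.01 and 0.03 over all genes. Heterozygote 1 was the highest heterozygote array in 7 of the 10 genes, and in 52.3% of all genes.

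**Figure D3:**
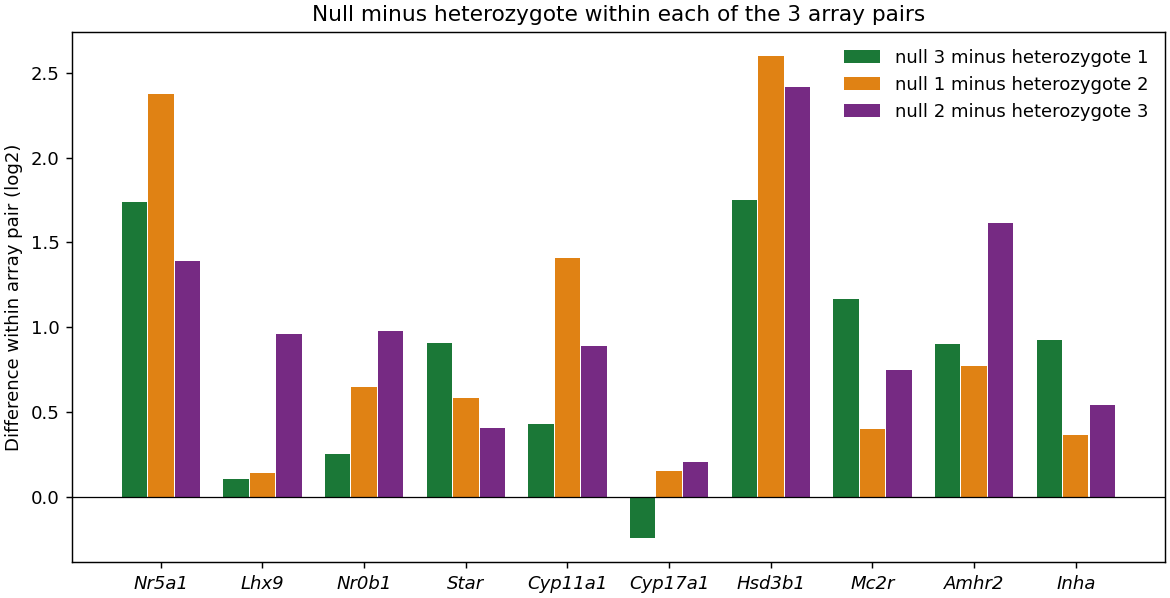
Null minus heterozygote (log2, bars) for each of the 10 genes within the 3 pairs of arrays matched on their hybridization controls. The bars of Hsd3b1 reach from 1.75 to 2.60, and the one bar below 0 is that of Cyp17a1 in pair 1.

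Genes that act upstream of or beside the 10 in gonad formation showed no shared direction. Of 20 measured regulators of the bipotential gonad, 10 were higher in null, the median difference was -0.0025, and 0 passed (limma, with 4 at an unadjusted p under 0.05, which 9.73% of all genes reached in either direction). Gata4, a zinc finger partner of Nr5a1, averaged 8.09 ± 0.92 in null and 6.64 ± 0.34 in heterozygote cells (SD, n = 3 each), a difference of 1.45 ± 0.43 (limma, adjusted p = 0.223), and passed with the array pair as a block (limma, adjusted p = 0.0354). Its cofactor Zfpm2 differed by 1.33 ± 0.37 without passing. Cited2, a co-regulator that raises Nr5a1 in the adrenal primordium, and Emx2, which is needed for gonad growth, had differences of -0.65 ± 0.17 and -0.43 ± 0.17 that did not pass, though Cited2 fell with the array pair as a block (limma, adjusted p = 0.0479). Wt1, an activator of Nr5a1, averaged 9.71 in null and 9.80 in heterozygote cells, and Nr5a2, the close relative of Nr5a1, 4.39 and 4.24 in the same order. These last genes, picked after their values were seen, differed by -0.09 and 0.15.

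None of the other measured steroid pathway genes passed. Of 21 measured steroidogenic genes beyond the members, 8 were higher in null, the median was -0.03 and 0 passed (limma, with 2 at an unadjusted p under 0.05). Of the 21, 9 lay under the 33rd percentile, and the median of the other 12 was 0.09. Akr1c18, which inactivates progesterone, read 3.88, 3.97 and 3.64 in null, against 6.75, 5.86 and 3.66 in heterozygote cells. Heterozygote 3 lay among the null arrays, and the difference of -1.59 ± 0.67 came to -0.93 without heterozygote 1 and to -2.48, which passed, without heterozygote 3 (limma, adjusted p = 0.0300). Akr1c18 passed in 2 of 17 alternatives, the other being the array pair as a block without pair 3, which also leaves out heterozygote 3. Cyp21a1, the adrenal 21-hydroxylase, had a difference of 0.36 ± 0.16. Hsd17b3, of testicular androgen synthesis, had a difference of -0.37 ± 0.17. It averaged 3.32 in null and 3.69 in heterozygote cells, under the 33rd percentile of probe sets, where a difference carries little weight. Cyp11b1, of adrenal steroid synthesis and picked after its values were seen, averaged 2.96 in null and 2.98 in heterozygote cells. Of 20 cholesterol synthesis genes 4 were higher in null, the median was -0.20 and 0 passed (limma, with 4 at an unadjusted p under 0.05, all lower, and 0 with the array pair as a block). These 4 were Idi1 (-0.60 ± 0.15), Lss (-0.49 ± 0.15), Insig1 (-0.52 ± 0.18) and Msmo1 (-0.82 ± 0.33).

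No partner of the hormone and receptor members passed over all genes. Among 18 genes of AMH and inhibin signalling, 6 were higher in null, the median was -0.01 and 0 passed (limma, with 2 at an unadjusted p under 0.05). Those 2 were Tgfbr3, the inhibin co-receptor, at 0.96 ± 0.21 (limma, adjusted p = 0.0974, and 0.0109 with the array pair as a block), and Fstl3, an activin antagonist, at 0.72 ± 0.20. Of genes picked after their values were seen, the ligand Amh differed by 0.07, and the inhibin beta subunits Inhba and Inhbb by 0.10 and -0.10. Among 16 genes of melanocortin and cAMP signalling 7 were higher, the median was -0.12 and 0 passed (limma, with 1 at an unadjusted p under 0.05). That gene was Pde8b, a cAMP phosphodiesterase of the adrenal, at -1.56 ± 0.36 (limma, adjusted p = 0.108). Mrap, which Mc2r needs to reach the cell surface and which was likewise picked after its values were seen, averaged 5.70 in null and 5.45 in heterozygote cells.

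Among genes listed as markers of differentiated gonad cells, not all of them particular to those cells, Gli1 rose, Irx3 fell and the others did not pass. Of 12 Sertoli cell genes 5 were higher, with a median of -0.10 and 0 passing (limma, with 4 at an unadjusted p under 0.05), Sox8 having a difference of -1.63 ± 0.38 and Fgf9 of -0.79 ± 0.19. With the array pair as a block Fgf9 and Clu fell. Of 10 granulosa and ovarian genes 3 were higher, the median was -0.06 and Irx3 fell by 1.42 ± 0.24 on the log2 scale (limma, adjusted p = 0.0342). The call of Irx3 was kept in 1 of 6 fits with 1 array left out, that without null 1. Of 7 measured Leydig and interstitial genes 6 were higher, the median was 0.20 and the Hedgehog target Gli1 rose by 1.48 ± 0.19 (limma, adjusted p = 0.0123, lost without null 1, null 2 or heterozygote 3). Pdgfra, a growth factor receptor of interstitial cells that is also in the stromal list, had a difference of 1.69 ± 0.47 (limma, adjusted p = 0.193) and rose with the array pair as a block (limma, adjusted p = 0.0229). Of 14 germ cell genes 4 were higher, the median was -0.10 and 0 passed (limma, with 2 at an unadjusted p under 0.05). These 2 were Ifitm3 and Tfap2c, genes expressed in primordial germ cells and also in other cells. Ifitm3 read 9.70, 10.15 and 10.08 in null, against 9.18, 8.58 and 8.46 in heterozygote cells, without overlap. Its difference was 1.24 ± 0.23 (limma, adjusted p = 0.0521), and it passed in 9 of 18 alternatives, the array pair as a block among them (limma, adjusted p = 0.0233). Tfap2c had a difference of -0.94 ± 0.32 (limma, adjusted p = 0.312). The germ cell markers Pou5f1, Dazl and Ddx4, also picked after their values were seen, averaged 4.31, 3.53 and 3.04 in null, against 4.35, 3.56 and 2.98 in heterozygote cells, all under the 33rd percentile.

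Stromal genes were higher in null in 12 of 12 cases, with a median of 1.62 and 6 rising (Pdgfrb, Tbx18, Postn, Col1a2, Lum and Dcn). Their mean level was 9.59 to 9.90 in null and 8.004 to 8.62 in heterozygote arrays, and 4 to 9 of them rose in fits with 1 array left out. Macrophage and leukocyte genes were higher in 15 of 15, with a median of 1.18 and a mean level of 6.44 to 7.71 in null, against 5.30 to 6.35 in heterozygote arrays. None of them passed (limma, with 10 at an unadjusted p under 0.05 and 6 with the array pair as a block). The duct and kidney mesenchyme list had all 16 genes lower in null, a median of -1.16 and a mean level of 7.79 to 8.17 in null and 9.34 to 9.62 in heterozygote arrays. Its 8 falling genes were Gdnf, Sim1, Lhx1, Calb1, Ret, Gata3, Sall1 and Eya1, of which 4 to 8 fell in fits with 1 array left out.

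Coelomic epithelium, from which gonad and adrenal cells arise, had 7 of 14 marker genes higher in null, with a median of -0.004. With 1 array left out the median lay between -0.07, without heterozygote 2, and 0.20, without heterozygote 1. Of the 14, 7 reached an unadjusted p under 0.05 (limma), and in 6 every null array lay above every heterozygote array. These 6 were Bnc2, Bnc1, Krt19, Nkain4 (0.78 ± 0.25), Lrrn4 (0.69 ± 0.28) and Aldh1a2 (0.43 ± 0.17), the last 2 named after their values were seen. Bnc2 rose by 1.04 ± 0.15 (limma, adjusted p = 0.0201, kept without null 3 and without heterozygote 1 and lost in the other 4 fits). Bnc1 and Krt19, at 1.59 ± 0.41 and 1.21 ± 0.25, did not pass over all genes and rose with the array pair as a block, passing in 4 and 6 of 18 alternatives, while Msln had a difference of -0.89 ± 0.28 that did not pass. The list's mean level was 7.47 to 7.69 in null and 7.06 to 7.67 in heterozygote arrays. The 12 measured genes listed for chromaffin and sympathoadrenal cells, Stmn2 among them, are not all particular to the adrenal medulla. In this list Stmn2 rose by 2.64 ± 0.47 and Phox2a fell by 1.26 ± 0.22 on the log2 scale (limma, adjusted p = 0.0390 and 0.0351). Both calls were lost in most fits with 1 array left out, that of Stmn2 without heterozygote 1 or any null array, and that of Phox2a in all but the fit without null 2. The list's median was -0.06 and its mean level 5.69 to 6.06 in null and 5.64 to 5.97 in heterozygote arrays. Endothelial genes had a median of -0.07 and erythroid genes of 0.47, with 0 passing in either list (limma, with 1 and 0 at an unadjusted p under 0.05). The part of any of these cell types in the values of the 10 genes was not tested.

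**Figure D4:**
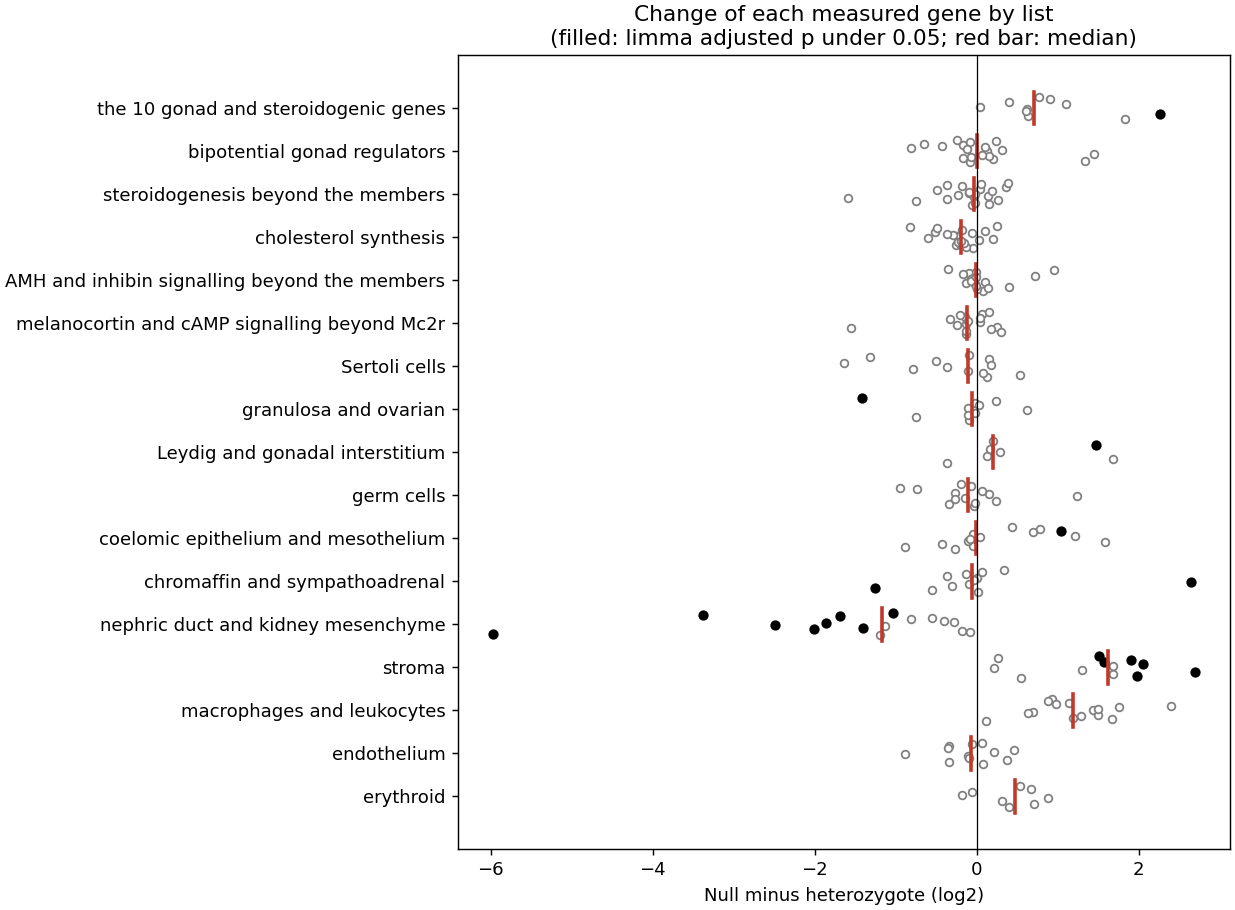
Null minus heterozygote (log2) for each measured gene of the 10 and of 16 other lists, filled where limma's adjusted p is under 0.05, with the median of each list as a red bar. The medians of the 10 genes (0.70), stroma (1.62) and macrophages and leukocytes (1.18) lie to the right of 0, and that of nephric duct and kidney mesenchyme (-1.16) to the left.

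The genes with array profiles closest to those of Nr5a1 and Hsd3b1 were looked up among 13426 others, by the root mean square difference of log2 values centred on each gene's mean over the 6 arrays. Closest to Nr5a1 were Akr1cl (0.11), Adgrf5 (0.13), Col5a2 (0.20), Pcolce (0.20) and Pdgfra (0.20), against a median of 1.07 over all genes compared. Akr1cl encodes an aldo-keto reductase, Col5a2 a fibrillar collagen, Pcolce an enhancer of collagen processing, and Pdgfra a receptor that is also in the stromal and interstitial lists. Akr1cl read 8.29, 7.94 and 9.07 in null and 7.47, 5.91 and 6.89 in heterozygote cells, with the same arrays at the top and bottom as for Nr5a1. Its choice by likeness to Nr5a1 favours such an order. Hsd3b1 was the member closest to Nr5a1, at 0.38 and rank 51, followed by Cyp11a1 (0.49) and Amhr2 (0.56), while Star stood at 1.13 and rank 8913. Star was compared by its brightest probe set, 1418729_at, only. Its probe sets 1449201_at and 1418728_at were not compared, and both were highest on null 3 and lowest on heterozygote 2, as Nr5a1 was. Closest to Hsd3b1 were Tmem119 (0.15), Igfbp3 (0.16), Epha3 (0.19), Fry (0.20) and Avpr1a (0.22). Igfbp3 binds insulin-like growth factors, Epha3 is a receptor for ephrins and Avpr1a one for vasopressin. Igfbp3 differed by 2.22 and Avpr1a by 2.21 between genotypes, values that follow from the choice of genes by their likeness to Hsd3b1. Hsd3b1 and these genes were all lowest on heterozygote 2 or heterozygote 3, which the same choice favours.

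**Figure D5:**
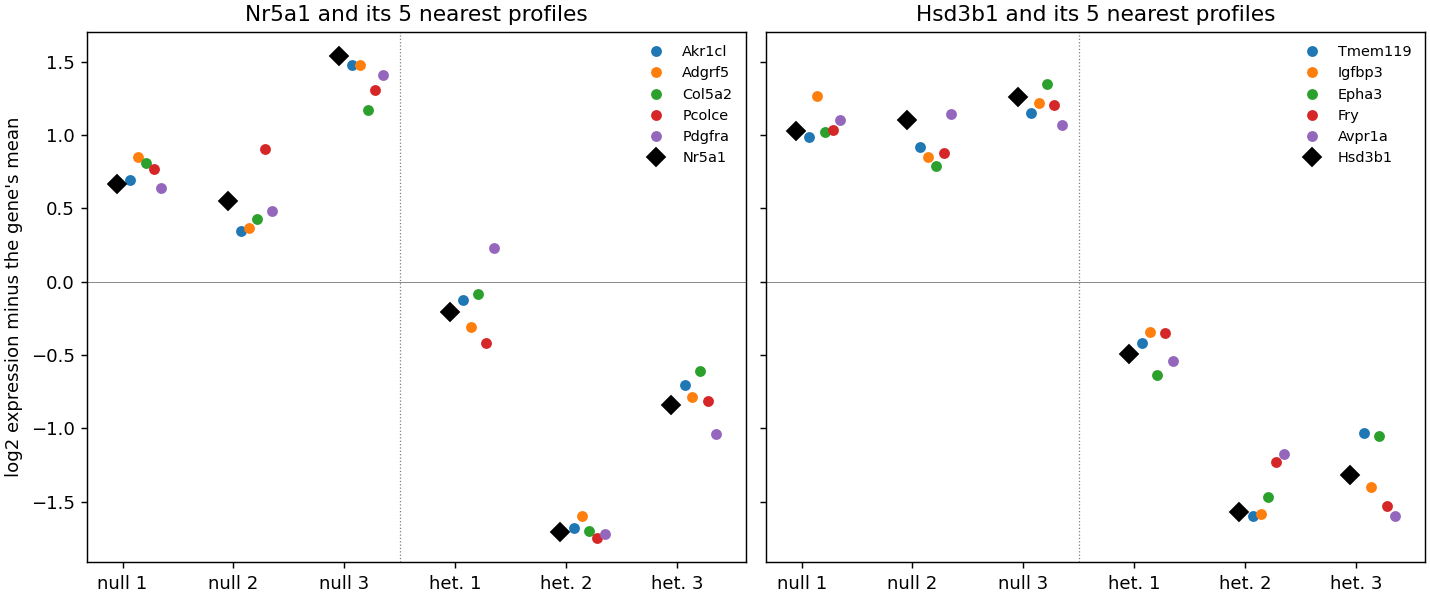
Log2 expression minus each gene's mean over the 6 arrays, on null and heterozygote (het.) arrays, for Nr5a1 (left, diamonds) and Hsd3b1 (right, diamonds) with the 5 closest genes of each (circles). The Nr5a1 group is highest on null 3 and lowest on heterozygote 2, and the Hsd3b1 group separates the genotypes on every array. Both patterns follow from the choice of genes by their likeness to Nr5a1 or Hsd3b1.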

How the data were processed

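RNA of EGFP-positive cells was amplified from 10 ng with the NuGEN WT-Pico Ovation kit and hybridized to 1-colour Affymetrix mouse arrays, per the labels' protocols. The deposited values are log2 expression per probe set, and affy, RMA and limma are named in the submitters' processing notes, with no settings stated. RMA compresses differences between dim probe sets and equalizes arrays, which hides differences in total RNA. The number of arrays, 3 per genotype, limits the precision.

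Of 45101 probe sets, 64 were array controls and 34945 others had exactly 1 symbol in the platform annotation, while 932 had several and were not used for genes. For each gene the brightest probe set over the 6 arrays was used (18193 genes, 0 symbols changed against RefSeq identifiers). Null was compared with heterozygote in limma 3.58.1 under R 4.3.3 (lmFit, eBayes, two-sided, no covariates, Benjamini-Hochberg over all genes, threshold 0.05). All 45037 probe sets were also fitted singly. A difference is the null mean less the heterozygote mean, with the SE of the fit, and means carry SDs. The fits were tested on simulated data.

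Arrays were paired on 18 hybridization control probe sets without reference to genotype. Of 15 possible matchings the closest summed to a distance of 1.97 and the runner-up to 5.07, and after removal of genotype means paired arrays correlated at 0.377 or more across genes, other arrays of opposite genotype at most at 0.0972. No 2 arrays of a genotype were copies, with correlations of 0.976 to 0.991.

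The members, lists, tests and alternatives were chosen with earlier results of these data known. Named were all members with every probe set, the passing genes of each list with up to 4 others of smallest p, and the 5 closest profiles among genes at or above the 33rd percentile. Other genes are marked as picked after their values were seen. Listed genes without a probe set of their own were not analysed here.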

Additional observations from a re-analysis of the deposited data

How the results depend on the processing

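Hsd3b1 kept its direction and passed in 17 of 18 alternatives, with changes of 2.03 to 2.57 and adjusted p from 0.00112 to 0.0542 (limma), and was lost only without heterozygote 3. Nr5a1 passed in 4 of 18 (array weights, the pair block, the pair block without pair 3, and without heterozygote 1), with changes of 0.98 to 2.19 and adjusted p from 0.0118 to 0.241. Star passed in 1 (mean over probe sets, change range 0.31 to 1.09) and Amhr2 in 1 (pair block, 0.80 to 1.52). Lhx9, Nr0b1, Cyp11a1, Mc2r and Inha passed in 0 of 18 and Cyp17a1 in 0 of 17 with none of the first 5 changing sign. The difference of Cyp17a1 turned to -0.0387 without null 2, and with the pair block to -0.0177 without pair 2 and -0.0439 without pair 3, and its range over fits with 1 array left out was -0.0387 to 0.1419.

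The count of passing members was 2 with array weights, 2 with the mean over probe sets, 3 with the pair block and 2 with the block without pair 3, 2 at a threshold of 0.1 and 0 at 0.01, and 0 to 2 with 1 array left out. Among member probe sets it was 2 with array weights, 3 with the pair block, 0 at 0.01, and 0 to 1 with 1 array left out. Over all genes 253 passed, against 553 with array weights, 368 with the mean over probe sets and 830 with the pair block. Without pairs 1, 2 and 3 the block gave 437, 121 and 517. The count was 405 at 0.1, 51 at 0.01 and 84 to 318 with 1 array left out. It was 86 without null 1, 110 without null 2, 318 without heterozygote 1, 98 without heterozygote 2 and 84 without heterozygote 3. Fits that drop an array or pair rest on fewer samples, and the cause of the other shifts was not tested. The fits without 1 pair were chosen after seeing the data. The other scalings moved the median change over all genes by at most 0.0302. Dim probe sets, such as that of Cyp17a1, limit what could be detected.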
